A study of Homo sapiens with 22 samples.

Results

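The mesendoderm transcription factors EOMES, T (brachyury), MIXL1, GSC, LHX1, FOXA2, SOX17, GATA4, GATA6 and HHEX were followed through the reprogramming of human fibroblasts. These 10 genes, of 33694 in the count tables, were taken by symbol from a list of textbook factors of the primitive streak and definitive endoderm, and CER1, which encodes a secreted NODAL and BMP antagonist of the anterior endoderm, was read beside them. The factors and the gene lists below were chosen with earlier results of these data known, so counts of them called are descriptions. BJ fibroblasts, an established foreskin line, were reprogrammed in microfluidic channels under low oxygen by daily transfections of mRNAs for POU5F1, SOX2, KLF4, MYC, LIN28 and NANOG, which ended before the D9 samples. Single-cell 3' RNA-seq was made on untreated fibroblasts (D0, the control) and on D3, D5, D7, D9, D11, D13 and D15 of the protocol, with 2 pools (A and B) a day. Each pool joined cells of several channels, some pools were sequenced from 2 aliquots, and the medium changed from a reprogramming to a pluripotent stem cell medium around D9, so later days differ from earlier ones in medium as well as in time.

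The 22 libraries held 44197 barcodes, of which 41975 cells were kept, and the counts of all cells of a pool were summed, giving 16 pools of 33181614 to 180056814 unique molecular identifiers (UMIs). Levels are counts per 1000000 UMIs (CPM) of these sums. A difference was called where edgeR's quasi-likelihood test gave an adjusted p below 0.01 and a log2 change beyond 0.25, over 21107 genes. A pair of libraries shared at most 41 barcodes, 1.63% of the smaller one. The labels fitted the markers, since a list of 12 fibroblast genes summed to 10423 to 10478 CPM on D0 and 1001 to 1187 CPM on D15, and 10 pluripotency genes to 5.618 to 5.796 CPM and 3318 to 3888 CPM. Pool A of D11 and pool B of D13 stood apart from the other late pools, because 66.5% and 53.6% of their cells had a CER1 UMI, against 15.7 to 31.0% in the other 4 pools of D11 to D15. The reason was not tested. With 2 pools a day, p-values measure only the spread between pools, and a higher level of a pool can come from more cells or from more RNA per cell.

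In the embryo, NODAL and WNT signals at the primitive streak switch on EOMES, T and MIXL1 in cells that leave the pluripotent state, a bipotent stage called mesendoderm. High NODAL signalling then leads to definitive endoderm with SOX17, FOXA2 and GATA factors, while GSC, LHX1, HHEX and the secreted CER1 mark its anterior part. T is kept on the mesodermal side, in the posterior streak and the notochord.

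Promoters of MIXL1, GSC and CER1 are shown because these genes are textbook targets of NODAL, whose nuclear effectors bind DNA together with FOXH1. RefSeq sequences (GRCh38.p14) upstream of the annotated start were searched on both strands for the FOXH1-type letters AATNCACA and for the TATA box letters TATAAA, and matches are in capitals. Promoter entries were found for 6 of the 10 factors.
MIXL1, chr1:226223414-226223617, + strand: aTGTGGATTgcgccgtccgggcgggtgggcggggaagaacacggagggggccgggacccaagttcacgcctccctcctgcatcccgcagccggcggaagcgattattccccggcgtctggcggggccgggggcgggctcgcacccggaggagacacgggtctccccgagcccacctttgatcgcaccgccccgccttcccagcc
GSC, chr14:94770114-94770363, - strand: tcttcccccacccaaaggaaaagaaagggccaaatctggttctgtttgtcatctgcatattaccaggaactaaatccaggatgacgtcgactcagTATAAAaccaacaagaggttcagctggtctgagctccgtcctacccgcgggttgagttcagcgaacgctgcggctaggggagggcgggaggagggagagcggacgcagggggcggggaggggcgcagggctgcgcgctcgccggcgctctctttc
CER1, chr9:14722734-14722983, - strand: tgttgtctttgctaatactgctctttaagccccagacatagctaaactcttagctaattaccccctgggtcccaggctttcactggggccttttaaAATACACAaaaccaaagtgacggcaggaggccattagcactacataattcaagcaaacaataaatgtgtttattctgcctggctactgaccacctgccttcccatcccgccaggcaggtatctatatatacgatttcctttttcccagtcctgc
The run of MIXL1 ends at the GENCODE start, 46 bases short of the RefSeq window. The FOXH1-type letters were found in the windows of MIXL1, on the reverse strand, and of CER1, and in 2.89% of 35116 promoter windows of 250 bases. The TATA letters were found for GSC, EOMES and T, and in 10.7% of the windows. The T-box letters AGGTGTGA, searched in the same way, were in none of the 6 windows and in 0.786% of all. A match is a description of letters and not of a bound site.

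EOMES, T, MIXL1, GSC, LHX1 and GATA6 were called higher on D11 to D15 than on D3 to D9. HHEX, a homeobox repressor of the anterior endoderm that other cells also use, was called lower. FOXA2, SOX17 and GATA4 were called higher too, but they reached the minimum of 10 UMIs in the 6 pools of D11 to D15 alone, so they entered the test through the days where they were high and their calls are no support. Over all 21107 genes, 25.4% were called higher and 22.1% lower in this comparison, which sets the mean log2 level of 3 days against that of 4. Fitted log2 changes over these days rest on days with 0 UMIs for several factors, so mean levels of the pools are given in their place. The late mean was 31.5 times the early mean for EOMES, 10.9 times for T, 9.04 times for MIXL1, 87.0 times for GSC, 74.3 times for LHX1 and 16.3 times for GATA6. FOXA2 averaged 1.62 CPM late and 0.00444 CPM early, SOX17 6.34 and 0.0157 CPM, and GATA4 2.31 and 0.0154 CPM. HHEX averaged 3.83 CPM late and 17.6 CPM early. Against D0, where GATA6 and HHEX alone of the 10 reached 10 UMIs in a pool, GATA6 was called higher on D15, with 26.9% of genes called higher, and HHEX was not called (log2 change -0.42, adjusted p = 0.298).

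**Figure D1:**
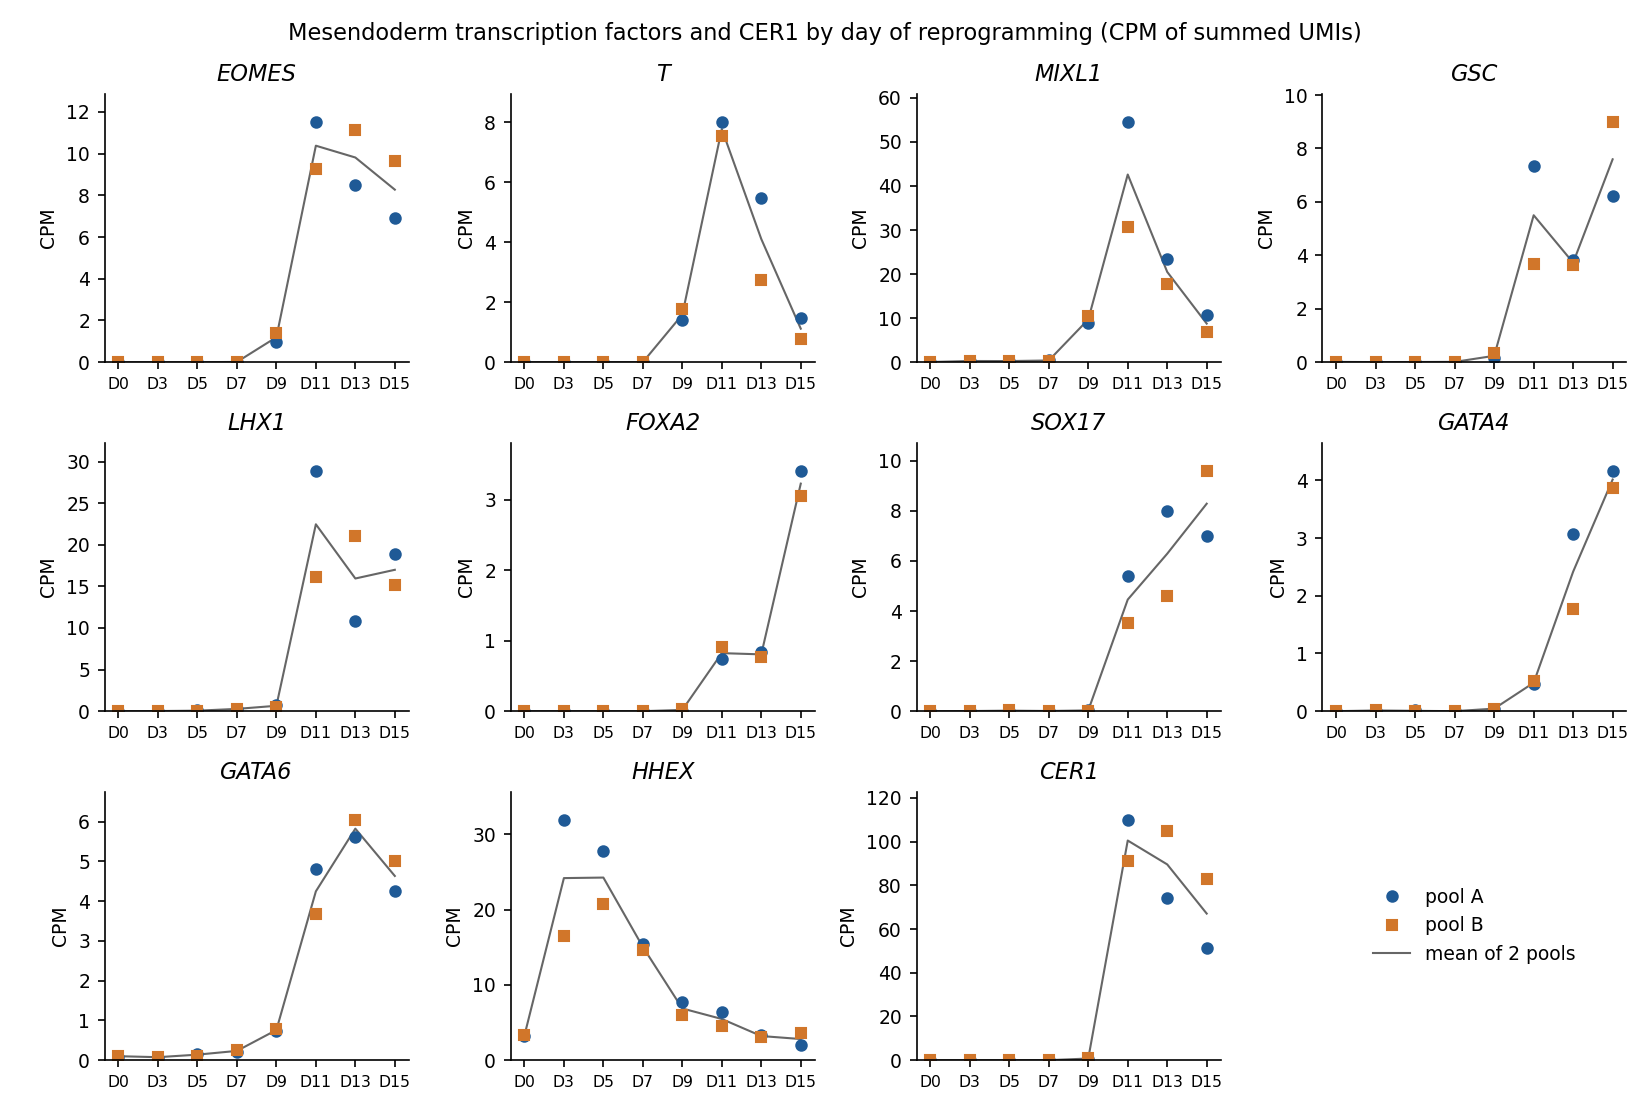
Level of each factor and of CER1 (vertical axes, CPM of summed UMIs, linear and starting at 0) by day of reprogramming (horizontal axes), with 1 point per pool and a line through the mean of 2 pools. HHEX was highest on D3 and D5, and the other factors were near 0 until D7 and reached their highest mean on D11, D13 or D15.

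The changes fell mainly into 2 intervals. From D7 to D9, 6 of the 10 factors (EOMES, T, MIXL1, GSC, GATA4 and GATA6) rose, and 4.63% of all genes were called higher. EOMES, T and GSC reached 10 UMIs in no pool before D9, and GATA4 in none before D11. They entered this test through later days where they were high, so their calls are no support. From D9 to D11, all but HHEX were called higher, where 3.37% of genes were, with the same limit on the calls of FOXA2, SOX17 and GATA4. From D0 to D3, MIXL1 and HHEX rose, 2 of 10 against 11.3% of genes called higher. MIXL1 reached 10 UMIs in no pool of D0, so its call is no support. No factor was called by edgeR from D3 to D5 or from D5 to D7, where 2.86% and 1.41% of genes were called in either direction, 0 and 1 factors had an unadjusted p below 0.05, and DESeq2 called 0 in each. From D11 to D13 only GATA4 was called, higher, with 0.166% of genes called higher. From D13 to D15 edgeR called none, with 0.137% of genes called, while 4 factors had an unadjusted p below 0.05 and DESeq2 called 3, of which 2 lower. At an adjusted p below 0.05 alone edgeR called 2 there, with 2.89% of genes.

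Some of these calls were lost when 1 pool was left out, in fits where the lone pool left of a day was assumed to vary like the pools of the other days. The count from D9 to D11 was 4 without pool A of D9 and 5 without pool B of D9, and EOMES, T, MIXL1 and GATA4 were the calls lost in both. Over the 16 fits without 1 pool, their log2 changes from D9 to D11 were 2.81 to 3.32 for EOMES, 2.07 to 2.37 for T, 1.54 to 2.39 for MIXL1 and 3.28 to 3.40 for GATA4. The count from D7 to D9 was 3 without pool A of D7, without pool B of D7 or without pool B of D9, with EOMES, T and MIXL1 still called each time.

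EOMES, a T-box activator that opens the endoderm programme downstream of NODAL, lies at chr3:27715949-27722711 (GENCODE, GRCh38). It had 0 UMIs in every pool of D0, D3 and D5, and 3 and 0 UMIs in pools A and B of D7. On D9 it stood at 0.969 and 1.42 CPM, on D11 at 11.5 and 9.26 CPM, on D13 at 8.51 and 11.1 CPM and on D15 at 6.90 and 9.64 CPM. The 6 late pools all lay above both D9 pools, and the 3 late days overlapped each other. From D7 to D9 its UMIs went from 3 to 272, a ratio of 111 with an exact binomial interval of 37.6 to 542, which covers counting error only. From D9 to D11 the log2 change was 3.04 ± 0.39 (SE, adjusted p = 0.000818). Against the 0 UMIs of D0, the D15 level was at least 912-fold higher, taking 3 UMIs over both D0 pools as the limit.

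T, the T-box factor of the streak and notochord (chr6:166157656-166168700, named TBXT in current annotation), had 0 UMIs in all 8 pools through D7. It stood at 1.39 and 1.78 CPM on D9, 7.99 and 7.54 CPM on D11, 5.48 and 2.72 CPM on D13, and 1.48 and 0.756 CPM on D15. The D9 level was at least 147-fold above the limit of 3 UMIs on D7. The rise from D9 to D11 was 2.21 ± 0.37 on the log2 scale (adjusted p = 0.00512), and it was lost without any 1 of the 4 pools of these days. Of the 4 factors with their highest mean on D11, T stood lowest on D15, at 14.4% of its D11 mean. Between D11 and D15 it fell by 2.91 on the log2 scale (SE 0.40, adjusted p = 0.00145), a call lost without either D11 pool or without pool B of D15.

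MIXL1, a paired-type homeobox gene switched on by NODAL at the streak, starts right after the promoter printed above (chr1:226223618-226227060). It was seen at 0.0360 and 0.0272 CPM on D0 and 0.298 and 0.232 CPM on D3, a log2 change of 3.13 ± 0.46 (adjusted p = 0.000236) that rests on 6, 4, 28 and 35 UMIs. It stayed at 0.227 to 0.392 CPM on D5 and D7. It reached 8.82 and 10.6 CPM on D9 and 54.5 and 30.7 CPM on D11, then stood at 23.3 and 17.7 CPM on D13 and 10.8 and 6.76 CPM on D15. The D9 and D15 pools overlapped, while all D11 pools lay above all D13 pools. MIXL1 rose by 4.64 ± 0.34 from D7 to D9 (log2, adjusted p = 5.35e-06) and by 2.07 ± 0.29 from D9 to D11 (adjusted p = 0.000632). It fell by 2.38 from D11 to D15 (log2, SE 0.29, adjusted p = 0.000264).

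GSC, a homeobox repressor of the organizer and anterior mesendoderm (chr14:94768223-94770113), had 0 to 3 UMIs in each pool through D7 and 0.138 and 0.338 CPM on D9. It stood at 7.33 and 3.67 CPM on D11, 3.81 and 3.64 CPM on D13 and 6.21 and 8.98 CPM on D15. D11 overlapped both later days, while both D15 pools lay above both D13 pools, and each late pool was more than 10 times above the D9 pools. The rise from D9 to D11 was 4.46 ± 0.55 (log2, adjusted p = 0.000293). LHX1, a LIM homeobox partner of the organizer (chr17:36936785-36944612), was at 0.266 and 0.278 CPM on D7 and 0.744 and 0.551 CPM on D9, a step that was not called. It then reached 28.8 and 16.1 CPM on D11, 10.8 and 21.1 CPM on D13 and 18.8 and 15.2 CPM on D15. Its change from D9 to D11 was 5.04 ± 0.55 (log2, adjusted p = 0.000183), and the late days overlapped.

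SOX17, an HMG-box factor that defines definitive endoderm (chr8:54457935-54460892), had at most 6 UMIs in any pool through D9. It stood at 5.39 and 3.52 CPM on D11, 8.00 and 4.58 CPM on D13 and 6.99 and 9.58 CPM on D15. The change from D9 to D11, from 7 to 1521 UMIs over both pools, was 7.06 ± 0.62 on the log2 scale (adjusted p = 5.95e-05). This call is no support, since SOX17 passed the filter through the pools of D11 to D15 alone. FOXA2, a forkhead pioneer factor of the endoderm and floor plate (chr20:22580998-22585455), had 0 UMIs through D7 and 0 and 4 UMIs on D9. It stood at 0.739 and 0.909 CPM on D11, 0.842 and 0.770 CPM on D13 and 3.41 and 3.05 CPM on D15, so that the D15 pools lay apart from the 4 pools before them. It rose by 5.38 ± 0.64 from D9 to D11 (log2, adjusted p = 0.000878), from 4 to 275 UMIs over both pools. FOXA2 entered this test through D11 to D15 alone, so the call is no support. Its D15 to D11 difference of 1.90 ± 0.43 missed the call (adjusted p = 0.0146), but was called by DESeq2.

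GATA4 and GATA6 are zinc finger factors that act together in endoderm and heart. GATA6 (chr18:22169589-22202528) was present at 0.0840 and 0.116 CPM on D0 and at 0.210 and 0.256 CPM on D7. It stood at 0.744 and 0.773 CPM on D9, 4.81 and 3.68 CPM on D11, 5.61 and 6.03 CPM on D13 and 4.25 and 5.01 CPM on D15. It rose by 1.68 ± 0.27 from D7 to D9 (log2, adjusted p = 0.00118) and by 2.41 ± 0.26 from D9 to D11 (adjusted p = 0.000110). GATA4 (chr8:11676959-11760002) followed later, at 0.467 and 0.519 CPM on D11, 3.07 and 1.77 CPM on D13 and 4.16 and 3.87 CPM on D15. No pool of these 3 days overlapped with a pool of another for GATA4. Its change was 2.30 ± 0.31 from D11 to D13 (log2, adjusted p = 0.00643) and 2.96 ± 0.31 from D11 to D15 (adjusted p = 0.000200). The former call was lost in 9 of the 16 fits that left out 1 pool, among them those without pool A of D11, pool B of D11 or pool B of D13. The call of GATA4 from D7 to D9 rests on 0 and 10 UMIs, a change of at least 4.08-fold.

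HHEX (chr10:92689955-92695647) ran the other way. It was at 3.19 and 3.34 CPM on D0, 31.9 and 16.5 CPM on D3, 27.8 and 20.7 CPM on D5 and 15.5 and 14.6 CPM on D7. Then it was at 7.72 and 6.01 CPM on D9, 6.36 and 4.58 CPM on D11, 3.40 and 3.02 CPM on D13 and 1.96 and 3.66 CPM on D15. It rose by 3.02 ± 0.36 from D0 to D3 (log2, adjusted p = 4.27e-05) and was lower by 2.24 (SE 0.19) in log2 on D11 to D15 than on D3 to D9 (adjusted p = 2.80e-07). The 2 pools of D3 differed by about as much as the 2 aliquots of pool A of D5, which gave 31.2 and 14.9 CPM from 1534 and 277 barcodes. In the other pools with 2 aliquots, the larger value was 1.02, 1.04, 1.57, 1.76 and 2.25 times the smaller. With only the 4 pools of D0 and D3 fitted, neither HHEX nor MIXL1 was called.

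**Figure D2:**
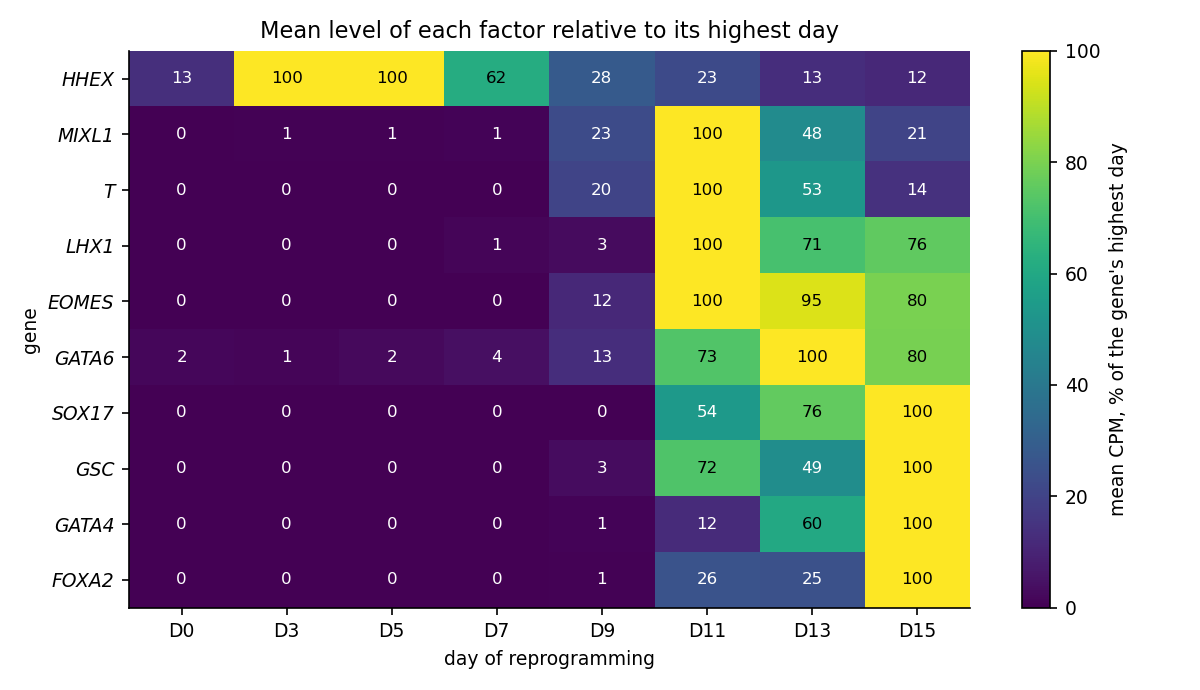
Mean CPM of each factor (rows) on each day (columns) as a percentage of that gene's highest day, printed in each cell as a whole number and coloured from 0 to 100 (scale at right). HHEX led on D3 and D5, T and MIXL1 stood at 14.4% and 20.6% on D15 after their D11 maximum, and GATA4 and FOXA2 stood at 12.3% and 25.5% on D11 before their D15 maximum.

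The order of the days was therefore not the same for all factors. On D9, MIXL1 and T had reached 22.8% and 20.4% of their highest mean, GATA6 13.03% and EOMES 11.5%. GSC, LHX1, GATA4, FOXA2 and SOX17 were at 3.13%, 2.88%, 1.09%, 0.550% and 0.367%. Of the direct tests between D11 and D15, which were added after the data were seen, GATA4 was called higher and T and MIXL1 lower. In this comparison 2.57% of all genes were called higher and 5.55% lower. EOMES (log2 change -0.39, SE 0.35), GATA6 (0.06, SE 0.24), GSC (0.39, SE 0.46), LHX1 (-0.49, SE 0.45) and SOX17 (0.83, SE 0.41) were not called, nor was HHEX (-1.005, SE 0.34, adjusted p = 0.0593).

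The share of cells with a UMI was then measured. For these shares, each cell was thinned to 5000 UMIs, which every kept cell reached, so that deep and shallow cells could be compared. EOMES was seen in 0 of 10776 D0 cells. This would limit cells with an EOMES UMI at this depth to 0.0278% if cells were independent draws, which cells of 1 pool are not. No limit is set on cells expressing EOMES. It was seen in 0.287% and 0.363% of cells of the D9 pools. It was seen in 4.58% and 3.32% of cells on D11, 3.85% and 5.60% on D13 and 2.80% and 4.27% on D15. MIXL1 was seen in 2.24% and 3.09% of cells on D9, 12.8% and 5.42% on D11, 4.21% and 6.96% on D13 and 3.33% and 2.37% on D15. T was seen in 0.574% and 1.21% of cells on D9, 2.77% and 1.86% on D11, 0.726% and 1.45% on D13 and 0.350% and 0.332% on D15. FOXA2 was seen in 0.218 to 1.76% of cells of the late pools. HHEX was the most widespread factor early, at 11.96% and 7.28% on D3.

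The shares depend on depth, and the mean share of EOMES on D11 was 3.95% at 5000 UMIs and 17.5% without thinning. Without thinning, MIXL1 had a UMI in 61.4% of cells of pool A of D11 but in 20.1% of cells of pool B. For comparison, cells of D11 to D15 with no CER1 UMI and fibroblast-like collagen levels, defined below as collagen-high, were read at 5000 UMIs. They held EOMES in 0 to 3.16% of cells and MIXL1 in 0 to 6.46%, highest in pool B of D13 and pool A of D11, respectively. Of cells with a T UMI, 13.6% in pool B of D13 and 42.9% of 7 cells in pool B of D15 were collagen-high. Such cells made up 10.9% and 8.21% of these pools. In the other late pools 0 to 10.0% of cells with T were collagen-high, against 6.30 to 36.7% of all cells. Without thinning, 42.4% of the collagen-high cells of pool A of D11 had a MIXL1 UMI, with at most 5 in a cell. An EOMES UMI was found in 12.4% of them, with at most 2 in a cell.

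On D9 the UMIs of MIXL1, T and EOMES were concentrated in few cells. The 10 highest cells held 35.6% and 38.8% of all MIXL1 UMIs of the 2 D9 pools, 50.9% and 49.5% of T, and 55.4% and 57.5% of EOMES. A single cell of pool A had 131 MIXL1 UMIs, 12.8% of the pool's 1020, and 36 of its 86 LHX1 UMIs were in a single cell. In pool B the 62 LHX1 UMIs were spread over 47 cells with at most 3 in a cell, and HHEX had a UMI in 460 and 378 cells. In both D9 pools MIXL1, EOMES and T were more abundant in cells with low collagen. There MIXL1 stood at 11.3 and 12.7 CPM against 1.07 and 2.33 CPM in collagen-high cells. EOMES stood at 1.24 and 1.75 CPM against 0.107 and 0.132 CPM, and T at 1.78 and 2.18 CPM against 0.178 and 0.176 CPM. HHEX was distributed the other way, at 5.16 and 4.49 CPM in collagen-low and 15.7 and 12.04 CPM in collagen-high cells of D9. GATA6 differed between the pools, at 0.845 and 0.724 CPM in collagen-low and 0.428 and 0.967 CPM in collagen-high cells. At 5000 UMIs GATA6 was seen in 0.0841% and 0.239% of collagen-low and 0.362% and 0.5% of collagen-high cells.

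The D9 cells with at least 5 MIXL1 UMIs, 42 and 45 cells in pools A and B, had an EOMES UMI, over all UMIs without thinning, in 35.7% and 24.4% of cases, against 2.24% and 3.42% of the remaining cells. They were deeper, with a median of 80539.5 and 89951 UMIs against 60731.5 and 62590, and per UMI EOMES stood at 13.7 and 13.1 CPM in them and at 0.554 and 0.943 CPM in the rest. T was seen in 14.3% and 13.3% of them, against 2.94% and 4.04%. CER1 was seen in 2.38% and 8.89% of them, against 0.941% and 2.18%, so that most MIXL1-rich cells of D9 had no CER1 UMI. Per UMI the pools differed, with CER1 at 0.274 and 5.40 CPM in them against 0.598 and 0.721 CPM in the rest. HHEX was seen in 28.6% and 22.2% against 26.4% and 22.9%, and stood at 4.11 and 3.38 CPM against 7.84 and 6.12 CPM. Cells of 1 pool are not replicates, so these shares are given with no test.

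From D11 on, MIXL1, GSC, LHX1, FOXA2, SOX17, GATA4, GATA6 and HHEX were each seen in a higher share of EOMES-positive than of EOMES-negative cells in all 6 pools. Among cells with an EOMES UMI at 5000 UMIs (134 and 109 cells on D11, 53 and 228 on D13, 16 and 90 on D15), MIXL1 was seen in 56.7% and 54.1% on D11, against 10.7% and 3.75% of cells without EOMES. By D15 the share with MIXL1 was 25.0% and 21.1%, against 2.70% and 1.54%. LHX1 was seen in 33.9 to 48.5% of EOMES-positive cells over the 6 pools and in 1.61 to 4.61% of the others, with no overlap between them. SOX17 was seen in 9.70% and 7.34% of EOMES-positive cells on D11 and in 18.8% and 37.8% on D15. GATA6 was seen in 16.4 to 34.0% of them and in 1.07 to 2.03% of the others. HHEX, although lower in the pools as a whole, was also seen more in EOMES-positive cells, in 6.25 to 18.9% against 0.901 to 2.33%.

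**Figure D3:**
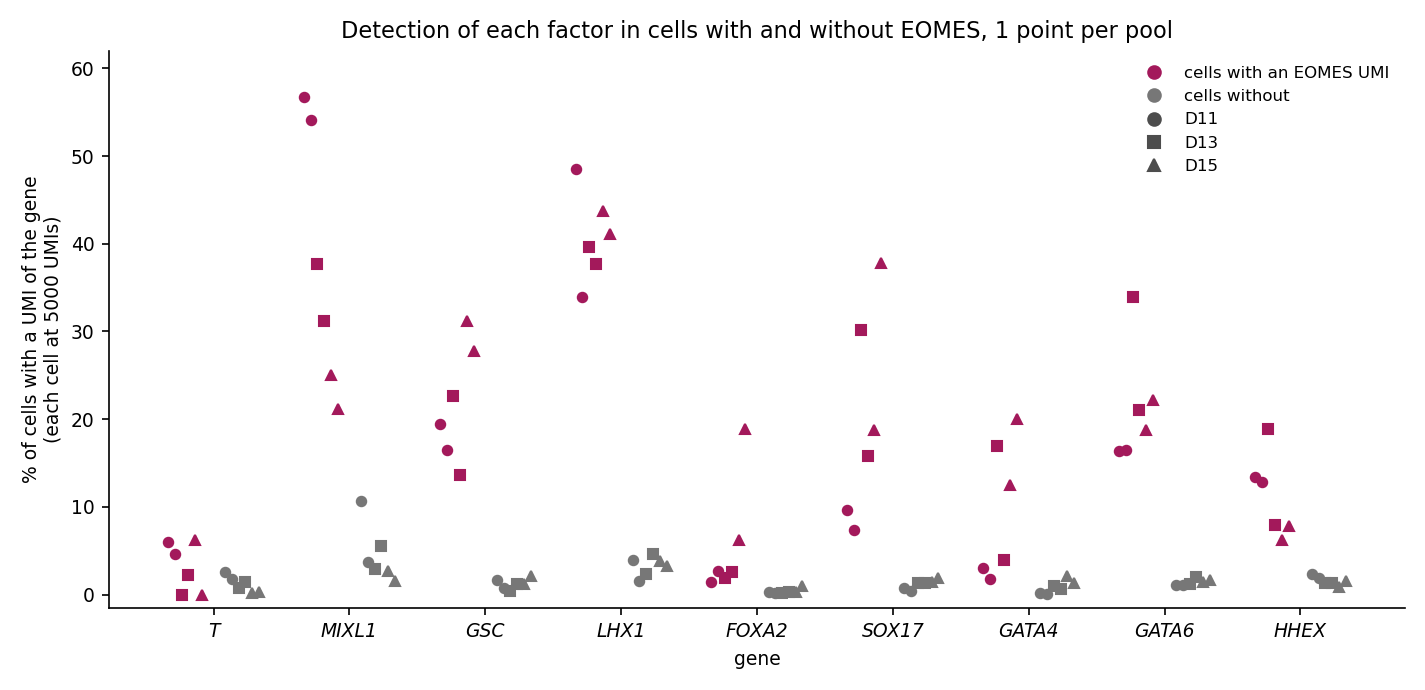
Percentage of cells with a UMI of each factor (vertical axis, each cell thinned to 5000 UMIs) among cells with (red) and without (grey) an EOMES UMI, with 1 point per pool of D11 (circles), D13 (squares) and D15 (triangles). The red and grey points do not overlap for MIXL1, GSC, LHX1, FOXA2, SOX17, GATA6 and HHEX, while for GATA4 and T they do, with T in 0 to 6.25% of EOMES-positive cells.

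T was seen in small shares of EOMES-positive cells at 5000 UMIs, 5.97% and 4.59% on D11, 0% and 2.19% on D13 and 6.25% and 0% on D15, against 0.180 to 2.62% of EOMES-negative cells, and these ranges overlap. Within both D11 pools, where T was seen in 81 and 61 cells, the share was higher in EOMES-positive cells, at 5.97% against 2.62% in pool A and 4.59% against 1.76% in pool B. Without thinning, T had a UMI in 26.2% and 29.2% of EOMES-positive cells of D11, against 15.6% and 7.73% of the others. MIXL1 was seen in 20.99% and 27.9% of the T-positive cells of D11 at 5000 UMIs, against 12.6% and 4.998% of the other cells. GATA4 was seen in none of the 81 and 61 T-positive cells, in pools where it was seen in 0.281% and 0.124% of the other cells. On D15, T came from very few cells, with 49 UMIs in 10 cells of pool A, of which 1 cell held 33, and 49 UMIs in 23 cells of pool B.

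Co-expression with CER1 was then measured in D11, D13 and D15. Cells with at least 5 CER1 UMIs were called CER1-high, 880 of 14332 cells, with 208 and 155 on D11, 94 and 277 on D13 and 21 and 125 on D15. They made up 3.68 to 7.11% of each pool and held 82.7 to 97.0% of its CER1 UMIs. Cells with no CER1 UMI were split by their summed COL1A1, COL1A2 and COL3A1 level, at the 5th percentile of D0 cells (914 CPM), into collagen-low and collagen-high cells. The 4839 cells with 1 to 4 CER1 UMIs were left out of both. Close to the limit, 155 cells had 5 or 6 UMIs and 633 had 3 or 4. The factors' UMIs were not used to define these classes.

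In CER1-high cells 9 of the 10 factors were higher than in collagen-low cells of the same pools, where 14.2% of 17949 genes were called higher and 12.2% lower, in a fit of summed counts with the pool as a block. The median log2 change was 4.65 over the factors and -0.04 over all genes. T was not called (4.59-fold, SE 0.69 in log2, adjusted p = 0.0189). Against collagen-high cells, 9 of the 10 were also higher and T again was not (log2 change 2.70, SE 0.86, adjusted p = 0.0142), with 22.3% of genes called higher. T was called in the latter without pool B of D15, whose collagen-high cells held 26 T UMIs with up to 9 in a cell. Without pool A of D11 and pool B of D13, each comparison gave the same count of 9.

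EOMES stood at 68.5 and 105 CPM in the CER1-high cells of D11, 111 and 94.0 CPM on D13 and 89.7 and 106 CPM on D15. In collagen-low cells it stood at 1.31 to 6.74 CPM and in collagen-high cells at 0.733 to 7.87 CPM, so that the classes did not overlap. The log2 difference from collagen-low cells was 4.56 ± 0.39 (SE, adjusted p = 1.43e-06). MIXL1 was at 388 and 409 CPM, 309 and 142 CPM, and 74.3 and 60.6 CPM in CER1-high cells of D11, D13 and D15, against 3.57 to 21.7 CPM in collagen-low cells. GSC was at 33.8 to 122 CPM against 0.421 to 2.68 CPM, and LHX1 at 140 to 310 CPM against 1.18 to 7.97 CPM, a log2 difference of 5.70 ± 0.41 (adjusted p = 2.62e-07).

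SOX17 showed the largest log2 difference from collagen-low cells, 5.83 ± 0.46 (adjusted p = 7.19e-07), with 40.5 to 128 CPM in CER1-high and 0.239 to 3.65 CPM in collagen-low cells. FOXA2 was at 3.42 to 52.1 CPM against 0.211 to 1.83 CPM, and GATA4 at 2.60 to 51.3 CPM against 0.138 to 1.92 CPM. GATA6 was at 35.0 to 71.2 CPM against 0.674 to 2.19 CPM (log2 difference 5.14 ± 0.30, adjusted p = 7.74e-08). HHEX was at 9.19 to 33.0 CPM in CER1-high cells, 0.864 to 3.14 CPM in collagen-low and 2.714 to 6.003 CPM in collagen-high cells. It was the only factor called between the collagen-high and collagen-low cells, higher in the former by 1.25 ± 0.25 (log2, adjusted p = 0.000410), where 30.5% of genes were called higher. At an adjusted p below 0.05 alone 4 factors were called between these classes, with 73.3% of genes. T was at 23.4, 32.2, 36.7, 6.37, 1.53 and 1.21 CPM in the CER1-high cells of the 6 pools in order of day, and at 0.279 to 6.74 CPM in collagen-low cells.

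**Figure D4:**
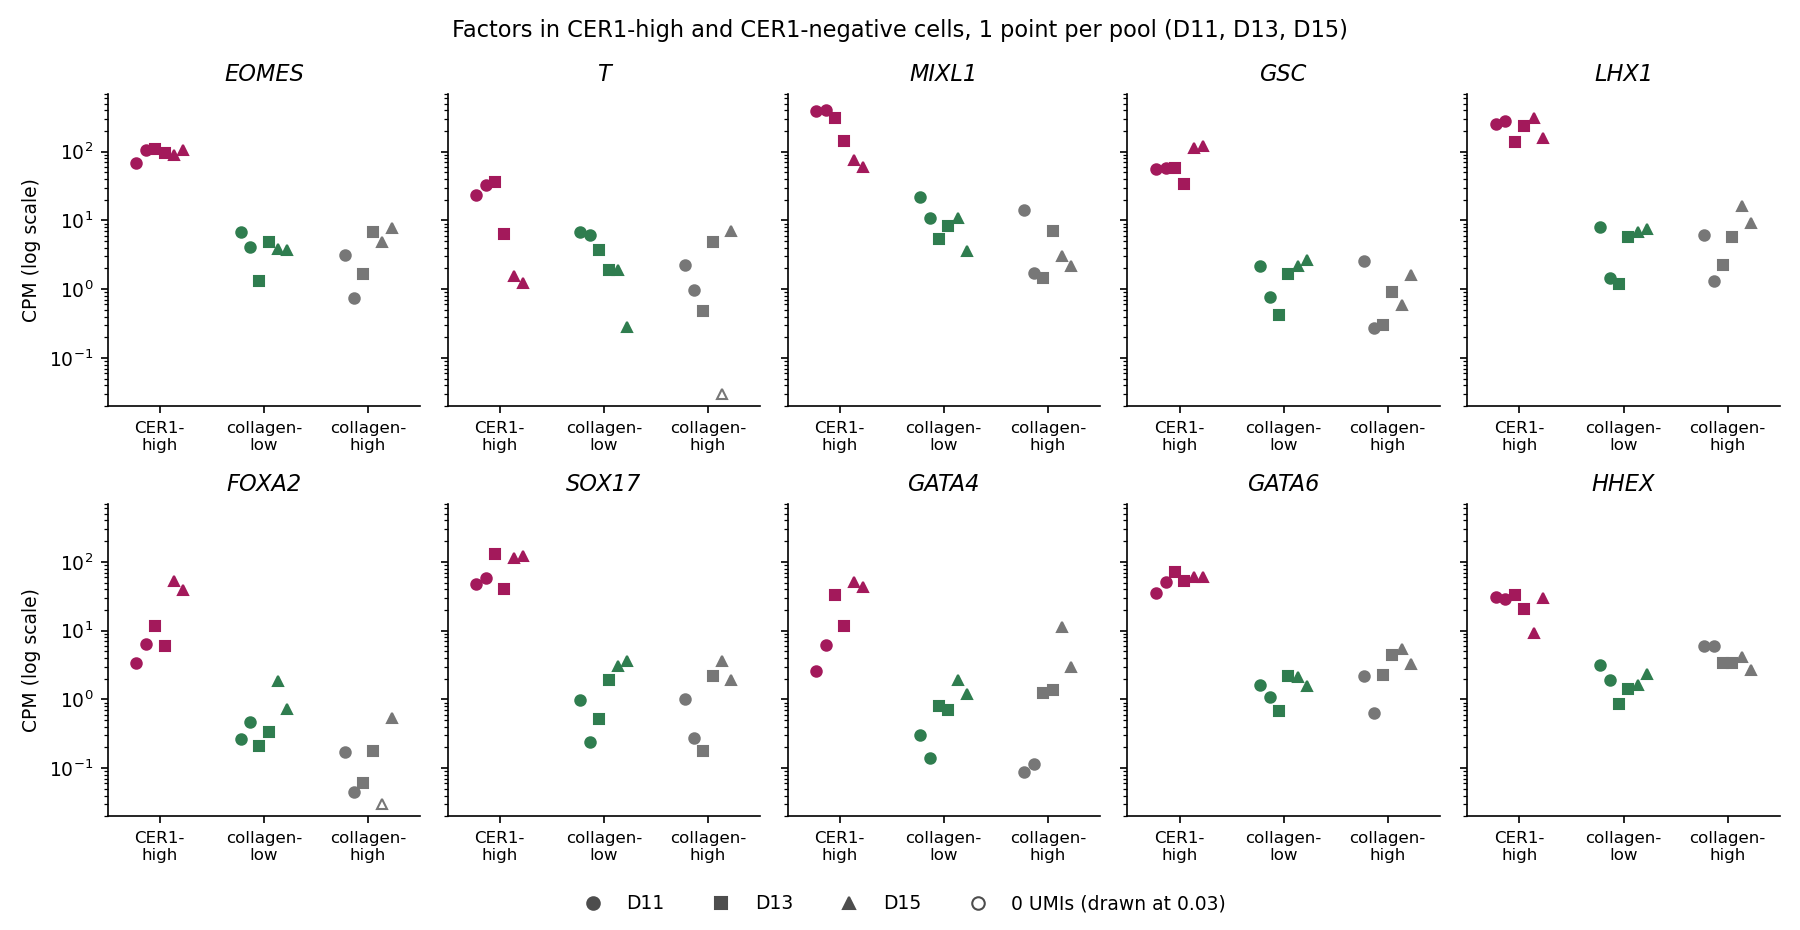
Level of each factor (vertical axis, CPM of summed UMIs, log scale) in CER1-high, collagen-low and collagen-high cells, with 1 point per pool of D11 (circles), D13 (squares) and D15 (triangles). Open symbols mark pools with 0 UMIs of the gene. All 6 CER1-high points lie above all points of both other classes for 8 of the 10 factors. GATA4 overlaps through the collagen-high cells of pool A of D15 (11.4 CPM) and pool B of D15 (2.99 CPM), and T overlaps as well.

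Taken per pool, the log2 ratio of CER1-high to collagen-low cells (0.5 UMI added) was above 0 in 6 of 6 pools for each factor but T, with a mean of 4.67 ± 0.99 (SD, n = 6) for EOMES, an exact 2-sided sign-flip permutation p of 0.0312, the smallest that 6 pools allow, and 0.0347 after adjustment over the 10 factors. For T it was 1.90 ± 1.10 (5 of 6 pools, exact permutation p = 0.0625). CER1-high cells held 51.1 to 76.7% of the EOMES UMIs of a pool, 52.1 to 88.0% of LHX1, 54.8 to 94.5% of SOX17 and 18.5 to 57.3% of HHEX. They held 4.08 to 39.5% of the T UMIs, and 40.6% and 35.9% of the FOXA2 UMIs of pools A and B of D11. Outside CER1-high cells lay 161 of the 273 GATA4 UMIs of pool B of D13. The same held for 260 of the 357 MIXL1 UMIs of pool A of D15. Of cells with an EOMES UMI at 5000 UMIs, 49.3 to 73.6% were CER1-high, and of those with a T UMI 0 to 50%.

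CER1-high cells carried several factors at once. Over all UMIs, a cell had a median of 4 to 5 of the 10 factors in the 6 pools, against 0 to 2 in collagen-low and 0 to 1 in collagen-high cells, with median depths of 24045 to 67820, 30315 to 61158 and 20723 to 46007 UMIs. At 5000 UMIs, 36.5 to 45.8% of CER1-high cells showed 3 or more, against 0 to 1.77% of collagen-low cells. At least 1 factor was seen in 70.2 to 80.9% of CER1-high cells at this depth, against 4.67 to 21.9% of collagen-low and 4.49 to 17.4% of collagen-high cells.

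The other lists show what else moved in these cells. Of 22 partner genes tested, taken from the signals and targets of the streak and endoderm, 15 were higher in CER1-high than in collagen-low cells, 0 lower and 7 not called, with a median log2 change of 2.27. CER1 defines the class and is counted among them. The largest were DKK4 (37.3 against 0.472 CPM), the signal FGF17 (218 against 5.68 CPM), the chemokine receptor CXCR4 of definitive endoderm (81.6 against 2.46 CPM), LGR5 (17.2 against 0.828 CPM) and the WNT antagonist DKK1 (211 against 13.1 CPM). Of 8 pluripotency genes called, 8 were lower, of 10 tested. The list still summed to 843 to 1663 CPM in CER1-high cells, against 2493 to 4247 CPM in collagen-low and 184 to 824 CPM in collagen-high cells.

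Of the mesoderm list 5 of 8 were higher, MESP1 (log2 3.83 ± 0.40), MESP2, TBX6, HAND1 and ISL1, and of the primitive and later endoderm list 4 of 7, HNF4A (4.66 ± 0.52), APOA2, APOA1 and PDGFRA. Of the fibroblast list 5 of 12 were higher and 1 lower, of which COL1A2 and COL3A1 also set the collagen limit. The list summed to 494 to 1386 CPM in CER1-high, 454 to 1324 CPM in collagen-low and 7329 to 11929 CPM in collagen-high cells. CER1-high cells had no collagen limit, while collagen-low cells did. Higher calls of genes that go with collagen, in any of these lists, can follow from this definition and are no support. Of the trophoblast and amnion list 2 of 7, of the germ cell list 1 of 3 and of the ectoderm list 1 of 3 were higher, with none lower. These are counts of 1 or 2 genes beside the 14.2% of all genes called higher. HAND1 is on both the mesoderm and the trophoblast and amnion lists and was counted in each. Whether cells of another type contribute to these changes was not tested.

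Levels within CER1-high cells were also compared between D11 and D15, a comparison added after the data were seen. This fit had no pool block, so class sums of the same pool were treated as independent samples. FOXA2 stood at 3.42 and 6.47 CPM on D11, 11.6 and 5.95 CPM on D13 and 52.1 and 38.5 CPM on D15, a log2 change of 3.18 ± 0.53 from D11 to D15 (adjusted p = 0.00630). GATA4 stood at 2.60 and 6.22 CPM, 33.0 and 11.7 CPM, and 51.3 and 43.0 CPM, a change of 3.44 ± 0.57 (adjusted p = 0.00628). These 2 of the 10 were called, with 0.557% of genes called higher, and pool A of D15 held 21 CER1-high cells. Leaving out any 1 of the 4 pools, which leaves 1 pool on a day, both missed the call, with log2 changes of 2.77 to 3.61 for FOXA2 and 2.89 to 4.07 for GATA4. T (change -4.42, SE 1.38, adjusted p = 0.134) and MIXL1 (-2.60, SE 0.82, adjusted p = 0.141) were not called, although their D15 pools lay below both D11 pools. EOMES (0.16, SE 0.64) and GATA6 (0.47, SE 0.53) were not called.

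**Figure D5:**
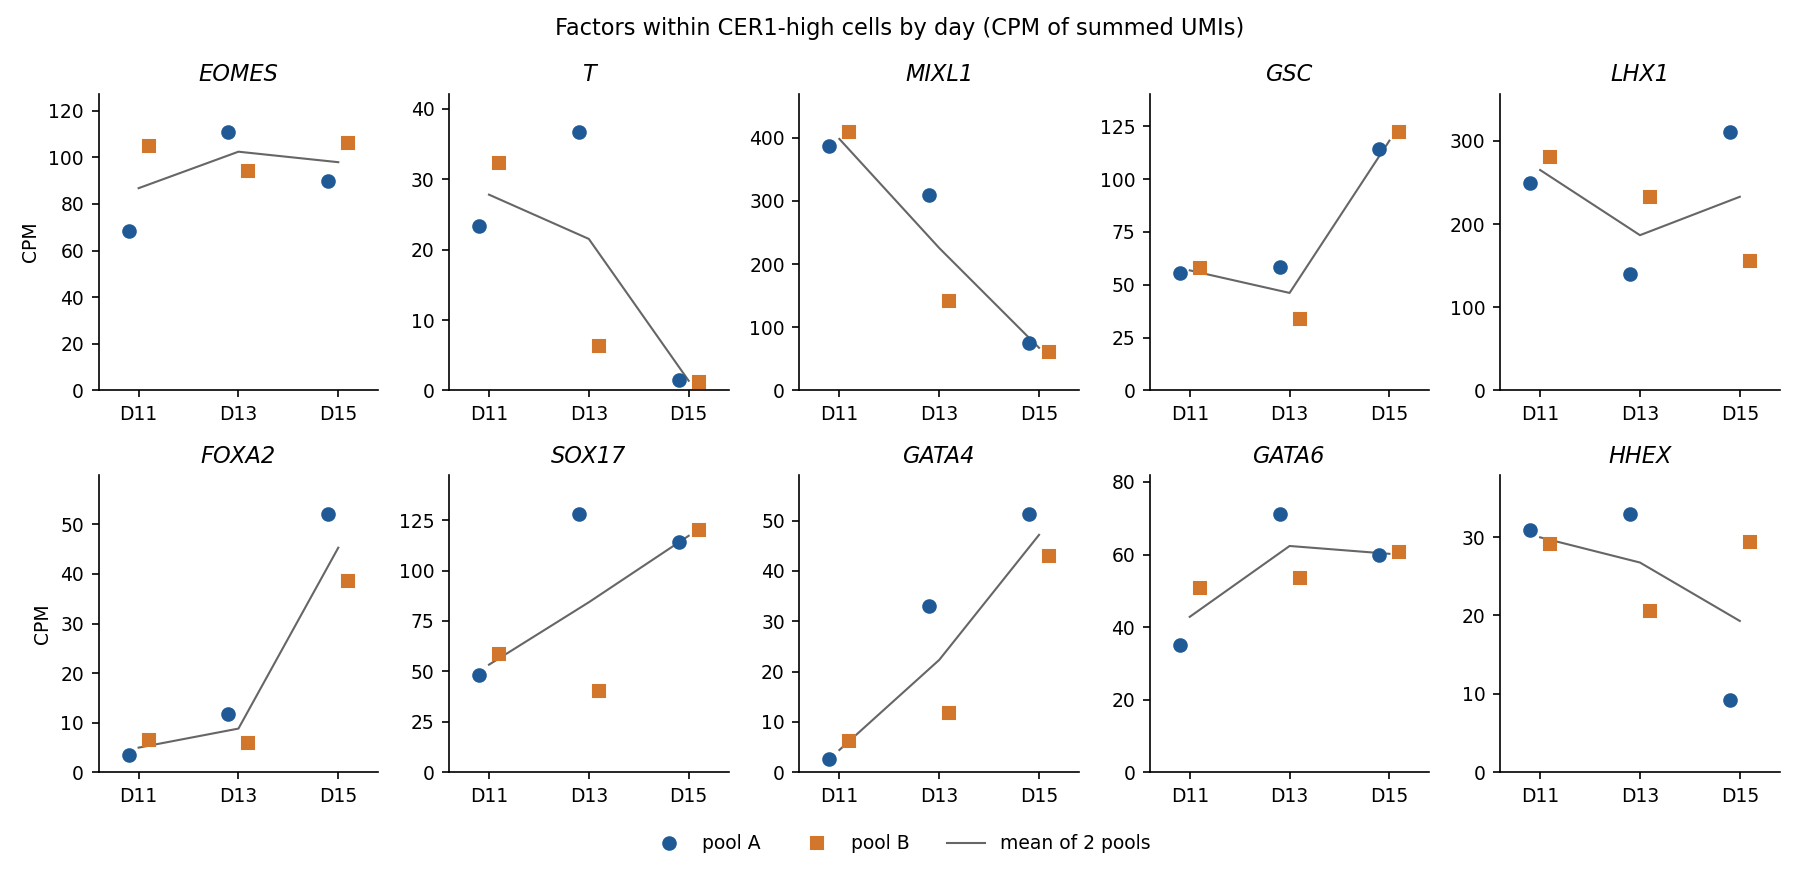
Level of each factor within CER1-high cells (vertical axes, CPM of summed UMIs, linear and starting at 0) on D11, D13 and D15 (horizontal axes), with 1 point per pool and a line through the mean of 2 pools. Both pools of D15 lie above both of D11 for FOXA2, GATA4, GSC, SOX17 and GATA6 and below both for T and MIXL1, and the values of EOMES overlap.

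The same comparison in other cells gave GATA4 in collagen-high cells (5.70 ± 0.80, adjusted p = 0.00963), with 0.039% of genes called higher. This rests on 2 and 5 GATA4 UMIs on D11 and 19 and 11 on D15, where pool A held 36 collagen-high cells. The comparison gave no factor in collagen-low cells, with 0.156% of genes called and 4 factors at an unadjusted p below 0.05. The difference of the D11 to D15 changes between CER1-high and collagen-low cells was not called for any factor by edgeR, with 1.04% of genes called and 1 factor, FOXA2, at an unadjusted p below 0.05 (1.55 ± 0.68, adjusted p = 0.296). DESeq2 was not run on these last comparisons.

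Over the pools, 21 of 23 partner genes were called higher on D11 to D15 than on D3 to D9, with none lower, where 25.4% of all genes were called higher. Of the 23, 3 passed the filter through the late pools alone. The ratio of the mean CPM of the late pools to that of the early pools had a median of 4.53 over the 23. Much of the rise of this list came before D11. From D7 to D9, 14 of the 23 were called higher, where 4.63% of genes were. From D9 to D11, 3 were, where 3.37% of genes were. The list summed to 238 to 283 CPM on D7, 1375 to 1428 CPM on D9 and 1608 to 1620 CPM on D11. On D13 and D15 the sums were 1055 to 1861 CPM and 1035 to 1199 CPM. Named partners were ordered by the fitted log2 change, which averages days on the log scale and weighs days near 0 more than the mean CPM printed here does. CER1 was at 0.588 and 0.906 CPM on D9, 110 and 91.2 CPM on D11, 74.2 and 105 CPM on D13 and 51.4 and 82.7 CPM on D15. The other named partners were the signals FGF17 (18.2 CPM in the late and 0.536 CPM in the early pools on average) and FGF8 (12.7 and 2.79 CPM), the homeobox gene OTX2 (7.42 and 0.321 CPM), the NODAL antagonist LEFTY2 (173 and 58.4 CPM) and the WNT target SP5 (5.01 and 1.43 CPM). DKK1 and FOXA1 were not called.

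The genes most like EOMES over the 16 pools were FGF17, FAM159B, GATA6, PPP1R17 and CER1, with Pearson correlations of log2(CPM + 1) of 0.994, 0.992, 0.991, 0.990 and 0.989 among 11161 genes. Those most like GATA6 were EOMES, SPIB, PPP1R17, PDZD4 and LINC00458, at 0.991, 0.989, 0.989, 0.988 and 0.988. Among the factors, EOMES was most like GATA6 and LHX1 (0.983) and least like HHEX (-0.66). These are descriptions over pools that share days, with no test.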

How the data were processed

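Per the labels and the study's methods, the authors made 10x Single Cell 3' v2 libraries and counted them with Cell Ranger 2.2 (GRCh38 pre-built annotation). The deposited values are raw UMI counts per gene and barcode. Members and gene lists were chosen with earlier results of these data known. Named partner genes were the 6 largest called changes each way at 5 CPM or more, and the 5 most alike genes were listed for EOMES and GATA6.

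Barcodes under 1000 genes or above 10% mitochondrial UMIs (2222) were left out, with no doublet caller, and aliquots were summed into pools. Genes with at least 10 UMIs in at least 2 pools were fitted with edgeR 4.0.16 (TMM, glmQLFTest, Benjamini-Hochberg, all 16 pools). All 10 factors passed, FOXA2, SOX17 and GATA4 through the pools of D11 to D15 alone, and EOMES, MIXL1, LHX1 and HHEX alone are in at least 5% of cells, the filter of the study. Class sums needed 20 cells per pool. DESeq2 1.42.0 was an alternative. On simulated counts, the fit of D11 to D15 against D3 to D9 recovered 45 of 50 genes changed 4-fold, D9 to D11 37 and CER1-high against collagen-low cells 39. False calls numbered 2, 0 and 2. Apart from the change, each simulated gene had the same mean share of UMIs in all pools. Several factors had 0 UMIs on the early days, so these rates do not carry over to them.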

Additional observations from a re-analysis of the deposited data

How the results depend on the processing

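Counts of factors called kept within 1.5 times of the reported value under most alternatives. Restricting to genes in at least 5% of cells leaves 4 factors to test and gave 2 called from D7 to D9, 3 from D9 to D11, 0 from D11 to D13, 4 for D11 to D15 against D3 to D9, 3 for D15 against D0 and 1 for D15 against D11. Fitting only the 4 pools of both days gave 0 from D0 to D3 and 0 from D11 to D13. From D13 to D15, 3 were called with every gene with a UMI, 3 by DESeq2 and 2 where an adjusted p below 0.05 sufficed. Without pool A of D11 and pool B of D13, a choice made after seeing the data, 0 were called from D11 to D13. Between collagen-high and collagen-low cells, 2 were called by DESeq2, with CER1-high cells from 20 UMIs and without cells above 2 times the median UMIs, 3 in cells thinned to 5000 UMIs, 4 without pool A of D11 and pool B of D13, and 4 at an adjusted p below 0.05. With CER1-high cells from 20 UMIs, 0 were called between D11 and D15 within CER1-high cells.

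Leaving out 1 pool in turn gave 3 to 6 from D7 to D9, 4 to 9 from D9 to D11, 0 to 1 from D11 to D13, 0 to 1 from D13 to D15, 1 to 2 between collagen-high and collagen-low cells, and 0 to 0 for D15 against D11 in CER1-high cells. The pool letters do not pair samples: over the 28 pairs of days, the differences between pools A and B correlated by -0.43 to 0.78 (median -0.03). With the pool letter as a replicate block, 6 factors were called from D7 to D9, 9 from D9 to D11 and 10 for D11 to D15 against D3 to D9, and no count changed. DESeq2 size factors moved the median of all genes by 0.10 from D3 to D5, by 0.15 in D15 against D0 and by 0.12 in D15 against D11 (log2).

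The share of cells with EOMES on D11 was 6.42% at 10000 UMIs and 17.5% with no thinning, and the share of EOMES-positive cells with MIXL1 on D11 was 67.4% with no thinning, where EOMES-negative cells had 36.1%, against 55.4% and 7.23% at 5000 UMIs. Mean shares of FOXA2 and GATA4 on D11 and of T on D15 were 0.342%, 0.198% and 0.341% at 5000 UMIs. With no thinning they were 1.99%, 1.94% and 1.42%. The cause of these shifts was not tested, except that fewer genes or pools entered the narrower fits.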

Other observations

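Aliquots of 1 pool, sequenced as separate libraries, differed in the factors by more than the pools of a day in some cases. MIXL1 in pool A of D9 was at 20.9 and 7.34 CPM in its 2 aliquots, and HHEX at 3.65 and 8.22 CPM. Over pools with at least 10 UMIs in both aliquots, the larger value was 1.21 to 2.60 times the smaller for EOMES (3 pools), 1.19 to 3.68 times for T (3 pools), 1.30 to 2.92 times for MIXL1 (5 pools), 1.02 to 2.25 times for HHEX (6 pools), 1.41 to 7.44 times for GATA6 (4 pools), 3.71 times for GSC (1 pool), 1.13 times for SOX17 (1 pool) and 1.63 to 12.5 times for LHX1 (4 pools). The largest gaps of EOMES, T, HHEX, GATA6 and LHX1 were in pool A of D9, with GATA6 at 3.25 and 0.437 CPM. The aliquots of that pool held 186 and 1752 barcodes. Those of pool A of D5, where the largest MIXL1 gap was, held 1534 and 277. Whether the low number of cells accounts for these gaps was not tested. The range of LHX1 includes the D9 cell with 36 LHX1 UMIs.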
